A study of Mus musculus with 8 samples.

Results

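The CD300 receptors and Sirpa were examined as 7 genes, Cd300a, Cd300lf, Sirpa, Cd300lb, Cd300ld, Cd300e and Cd300c2, chosen as the rows of the count table that carry these symbols, out of 54188 genes in all. All 7 passed the filter on low counts, as did 17650 genes of the table. The RNA came from spleen (SP) and bone marrow (BM) of sanroque mice, from which CD11b+Gr-1hi and CD11b+Gr-1lo cells had been sorted. Sanroque mice are homozygous for the san allele of Roquin on a C57BL/6 background and develop lupus-like autoimmunity. The mice were about 20 weeks old and labelled female, and every group carried the san allele, so that none of these 8 libraries is from a wild-type mouse. The groups are SP Gr-1hi (libraries 5 and 6), SP Gr-1lo (7 and 8), BM Gr-1hi (9 and 10) and BM Gr-1lo (11 and 12). The study relates Gr-1hi and Gr-1lo cells to granulocytic and monocytic myeloid-derived suppressor cells, on staining, morphology, function and the transcriptomes of these cells. Its test of T cell suppression used CD11b+Gr-1+ spleen cells of both subsets together. The cells sequenced were sorted on CD11b and Gr-1, and the Gr-1 antibody binds Ly6G as well as Ly6C. The libraries of a group were independent biological replicates, and no label ties a library to a mouse. Marrow cells in the study were autologous, so spleen and marrow libraries may come from the same mice, which the fit does not take into account. In sex-linked transcripts, given further on, libraries 5 (Xist and Ddx3y) and 7 (Xist) differed from every marrow library.

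CD300 receptors and SIRPα are surface proteins of the immunoglobulin superfamily on myeloid cells, many of which bind lipids of dying cells or proteins of neighbouring cells. They are paired receptors. Inhibitory members carry ITIM motifs in the cytoplasmic tail, which recruit the phosphatases SHP-1 and SHP-2, whereas activating members have a short tail and signal through adaptors with ITAM motifs such as TYROBP (DAP12) and the Fc receptor γ chain. CD300a and CD300lf are inhibitory members that bind phospholipids, and SIRPα is the inhibitory receptor for CD47, the "do not eat me" signal of healthy cells. CD300lb, CD300ld, CD300e and CD300c2 belong to the activating side of the family.

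The 6 CD300 genes lie in a cluster on chromosome 11, and Sirpa lies on chromosome 2 (chr2:129592835-129632228, plus strand; GRCm38). In GENCODE the cluster runs from Cd300a (chr11:114890041-114904654, plus strand) through Cd300lb (chr11:114922781-114934386), Cd300ld (chr11:114982274-114989922), Cd300c2 (chr11:114996721-115001880) and Cd300e (chr11:115051917-115062177) to Cd300lf (chr11:115116214-115133992), the last 5 on the minus strand. All 7 genes are protein-coding, and no exon of them overlapped an exon of another annotated gene on either strand. Of the 101-base stretches of their exons, at most 3.15% (40 of 1271 in Cd300c2, shared with Cd300a) occurred in another gene, and none did in Sirpa, Cd300e or Cd300lb, so that little of their counts could be split between copies.

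The promoters of the 6 CD300 genes are shown because these neighbours differed in level between the sorted cells, as described further on, and because a short motif was found in each of them. RefSeq (GRCm38.p6) gave promoter sequences for 6 of the 7 genes, all but Sirpa. The 100 bases just before the GENCODE gene start are printed 5′ to 3′ on the strand of the gene. That start lay 138, 36 and 15 bases upstream of the RefSeq start in Cd300e, Cd300ld and Cd300lb. Capitals mark AGGAAG or its reverse complement CTTCCT, a short form of the site of ETS factors such as PU.1. Their positions are chr11:114889941-114890040 (plus strand, Cd300a), chr11:115133993-115134092 (Cd300lf), chr11:114934387-114934486 (Cd300lb), chr11:114989923-114990022 (Cd300ld), chr11:115062178-115062277 (Cd300e) and chr11:115001881-115001980 (Cd300c2), the last 5 on the minus strand.
Cd300a: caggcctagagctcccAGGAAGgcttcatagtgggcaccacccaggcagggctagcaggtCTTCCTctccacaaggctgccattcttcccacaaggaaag
Cd300lf: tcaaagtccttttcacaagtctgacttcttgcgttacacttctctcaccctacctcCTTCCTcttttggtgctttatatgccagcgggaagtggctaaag
Cd300lb: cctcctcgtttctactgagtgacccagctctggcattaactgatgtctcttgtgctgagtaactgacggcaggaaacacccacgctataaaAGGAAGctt
Cd300ld: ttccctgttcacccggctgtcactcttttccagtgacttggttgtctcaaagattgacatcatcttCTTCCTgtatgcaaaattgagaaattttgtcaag
Cd300e: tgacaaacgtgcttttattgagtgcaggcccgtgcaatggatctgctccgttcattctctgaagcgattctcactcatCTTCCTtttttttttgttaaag
Cd300c2: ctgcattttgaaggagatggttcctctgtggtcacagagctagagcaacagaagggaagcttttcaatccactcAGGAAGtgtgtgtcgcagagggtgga
In Cd300lb the motif began 9 bases before the GENCODE start, and in Cd300e it began 22 bases before it, further from the RefSeq start in either gene. Cd300a held 2 copies, 84 and 40 bases before its start. Over the 250 bases before the RefSeq start, either strand, 6 of these 6 promoters held the motif, against 29.5% of 32851 RefSeq promoters. The other 6 motifs searched were in fewer of them, namely TATAAA in 2 (12.4% of all promoters), CCACCC in 2 (28.1%), TTGCNNAA in 1 (9.56%), TGTGGT in 1 (14.0%), TTCNNNGAA in 1 (7.02%) and the interferon-stimulated response element in 0 (2.98%). These motifs were chosen after the sequences had been seen, and a match describes letters only, not binding of a factor.

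Libraries held 33453580 to 68316154 reads on genes. Where a gene has no read, up to 3 reads, that is 0.0348 to 0.124 CPM depending on the library, remain possible from counting error alone. The sort was visible in its defining genes. Ly6g, which encodes the Ly6G antigen, was at 330 to 801 CPM in Gr-1hi and 3.07 to 8.23 CPM in Gr-1lo libraries, and Csf1r, the receptor of monocytes and macrophages, was at 133 to 375 CPM in Gr-1hi and 436 to 754 CPM in Gr-1lo libraries. Itgam (CD11b) was at 734 CPM or more in every library. Against the label of female mice, Xist was at 363 CPM in library 5 and 209 CPM in library 7 but at most 0.102 CPM in the other 6, while the Y-linked Ddx3y was at 0 in library 5 and at 33.7 to 82.6 CPM in the rest, library 7 included. Both libraries with Xist came from SP, so these transcripts were not balanced between the tissues. Calls that were lost without libraries 5 and 7 together are therefore named with the results.

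**Figure D1:**
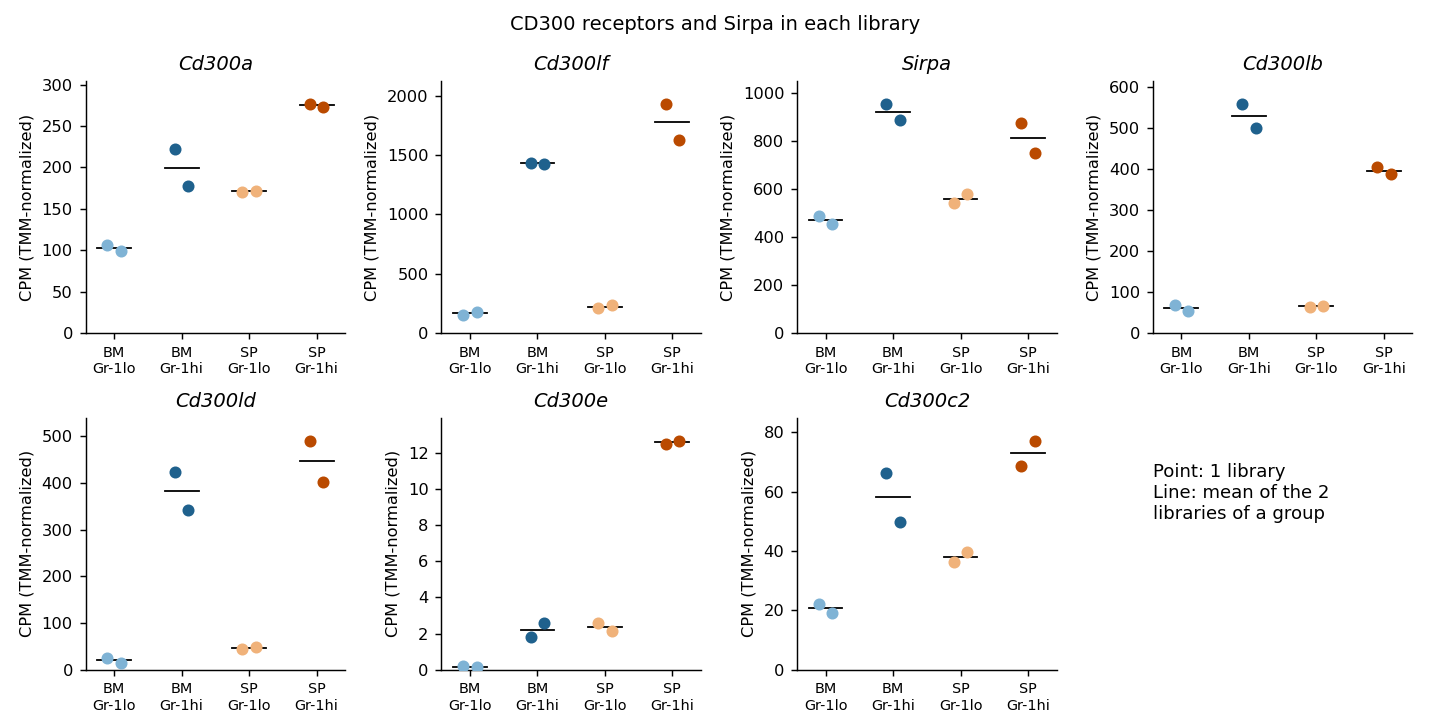
CPM (TMM-normalized, linear axis from 0) of each gene in the 4 groups, with 1 point per library and a line at the mean of the 2 libraries. Each gene has its own axis. On this scale the Gr-1hi libraries of a tissue sit above the Gr-1lo libraries of that tissue for all 7 genes. The share of all tested genes that separate in this way was not determined, while 75.7% in BM and 71.4% in SP passed the adjusted p at any FC. With total counts alone the libraries of the subsets overlap for Sirpa in SP and for Cd300a in BM. Cd300e stands at 12.5 and 12.7 CPM in SP Gr-1hi cells against at most 2.57 CPM in the other groups.

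The first comparison was that of Gr-1hi with Gr-1lo cells of the same tissue. The activating receptor genes Cd300lb, Cd300ld and Cd300e and the inhibitory Cd300lf were several-fold higher in Gr-1hi cells in both tissues, whereas Cd300a and Sirpa, which are inhibitory too, differed by less than 2-fold. Cd300c2, also activating, differed by more than 2-fold in BM but by less in SP. Genes were called where the adjusted p was 0.05 or less and the fold change (FC) 2 or more. By this rule 5 of the 7 genes were higher in BM Gr-1hi cells, where 24.2% of all tested genes were called higher and 57.3% in either direction. In SP, 4 of the 7 were called higher, against 22.3% of all tested genes called higher and 49.6% in either direction. The median log2 FC of the 7 genes was 3.09 in BM and 2.41 in SP, beside -0.17 and -0.088 for all tested genes. All 7 genes passed the adjusted p at any FC in both tissues, as did 75.7% of all tested genes in BM and 71.4% in SP, and under a stricter rule (adjusted p below 0.01, FC above 8) 4 genes were called in BM (16.7% of all tested genes) and 2 in SP (7.37%). Without libraries 5 and 7 together the calls of the 7 genes between subsets were unchanged in number (5 in BM and 4 in SP), and their log2 FC in SP were 2.78 for Cd300lf, 2.52 for Cd300lb, 3.02 for Cd300ld, 2.52 for Cd300e, 0.94 for Cd300c2, 0.65 for Cd300a and 0.36 for Sirpa. In sorted but bulk RNA, fewer cells that express a gene and less RNA per cell cannot be told apart, here and in what follows.

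Cd300lf, the ITIM receptor for phosphatidylserine and other lipids that also serves murine norovirus as its entry receptor, was the most abundant CD300 transcript of Gr-1hi cells. It was at 1436 and 1427 CPM in BM Gr-1hi and at 156 and 181 CPM in BM Gr-1lo libraries. In SP it was at 1929 and 1622 CPM in Gr-1hi and at 209 and 232 CPM in Gr-1lo libraries. The subsets were far apart in either tissue, by 3.09 ± 0.13 on the log2 scale (SE; adjusted p = 2.0e-07) in BM and by 3.01 ± 0.13 (adjusted p = 5.4e-07) in SP.

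Cd300lb, which couples to TYROBP and is a lipopolysaccharide and phosphatidylserine receptor, followed the same order in the subsets. It was at 558 and 499 CPM in BM Gr-1hi against 67.4 and 53.4 CPM in BM Gr-1lo libraries, and at 404 and 388 CPM in SP Gr-1hi against 64.0 and 66.5 CPM in SP Gr-1lo libraries. The log2 FC was 3.13 ± 0.13 (adjusted p = 2.0e-07) in BM and 2.60 ± 0.12 (adjusted p = 8.4e-07) in SP.

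Cd300ld, an activating member, showed the greatest difference between the BM subsets among the 7 genes. Its levels were 422 and 342 CPM in BM Gr-1hi and 25.7 and 14.9 CPM in BM Gr-1lo libraries, an FC of 18.9 (log2 FC 4.24 ± 0.27, adjusted p = 2.4e-06). In SP they were 490 and 401 CPM in Gr-1hi and 43.9 and 48.7 CPM in Gr-1lo libraries, an FC of 9.63 (log2 FC 3.27 ± 0.26, adjusted p = 1.2e-05). The BM Gr-1lo libraries were the lowest of all 8, and they differed from each other more than those of SP Gr-1lo cells did.

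Cd300e, an activating receptor known from monocytes and coupled to TYROBP, was rare throughout. In BM it had 49 and 62 reads (1.83 and 2.56 CPM) in Gr-1hi and 9 and 7 reads (0.184 and 0.132 CPM) in Gr-1lo libraries, a log2 FC of 3.77 ± 0.31 (adjusted p = 5.9e-06) that rests on few reads on the low side. In SP it had 414 and 397 reads (12.5 and 12.7 CPM) in Gr-1hi and 122 and 187 reads (2.57 and 2.17 CPM) in Gr-1lo libraries, with a log2 FC of 2.41 ± 0.21 (adjusted p = 1.2e-05). The Gr-1hi libraries of each tissue were all above its Gr-1lo libraries, although the receptor is better known from monocytes than from granulocytes.

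Cd300c2, a further activating member, differed less. It was at 66.4 and 49.7 CPM in BM Gr-1hi against 22.1 and 19.3 CPM in BM Gr-1lo libraries (log2 FC 1.49 ± 0.15, adjusted p = 2.1e-05), and at 68.7 and 77.2 CPM in SP Gr-1hi against 36.4 and 39.7 CPM in SP Gr-1lo libraries (log2 FC 0.94 ± 0.15, adjusted p = 0.00043). The SP difference was thus under an FC of 2 and was not called, while RLE scaling, upper-quartile scaling and DESeq2 put it at 1.07, 1.02 and 1.07 on the log2 scale.

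Cd300a and Sirpa, both inhibitory, were expressed at similar orders of magnitude in both subsets. Cd300a was at 222 and 178 CPM in BM Gr-1hi and at 107 and 98.7 CPM in BM Gr-1lo libraries, and at 277 and 273 CPM in SP Gr-1hi and 171 and 172 CPM in SP Gr-1lo libraries. Its log2 FC was 0.96 ± 0.11 (adjusted p = 5.6e-05) in BM and 0.68 ± 0.11 (adjusted p = 0.00055) in SP, under the FC threshold in either tissue. Sirpa was at 954 and 888 CPM in BM Gr-1hi and at 486 and 453 CPM in BM Gr-1lo libraries, and at 874 and 751 CPM in SP Gr-1hi and 541 and 578 CPM in SP Gr-1lo libraries. Its log2 FC was 0.97 ± 0.10 (adjusted p = 3.1e-05) in BM and 0.54 ± 0.10 (adjusted p = 0.0014) in SP.

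These modest differences depended on how the libraries were scaled. TMM factors were 0.724 to 0.863 in Gr-1hi and 1.26 to 1.30 in Gr-1lo libraries, and the 10 genes with most counts took 9.14% to 14.4% of the former and 5.30% to 5.91% of the latter. With total counts alone, a scaling added after the data were seen, the median log2 FC of all genes between subsets moved to -0.99 in BM and -0.69 in SP. On that scale the log2 FC of Sirpa was 0.16 (adjusted p = 0.24) in BM and -0.060 (adjusted p = 0.66) in SP, and that of Cd300a was 0.15 (adjusted p = 0.29) and 0.083 (adjusted p = 0.55). Cd300c2 then stood at 0.68 (adjusted p = 0.0030) in BM and 0.34 (adjusted p = 0.066) in SP. The other 4 genes kept their calls in both tissues, with log2 FC between 1.81 (Cd300e in SP) and 3.42 (Cd300ld in BM). Under RLE scaling and DESeq2, in contrast, all 7 genes were called higher in BM Gr-1hi cells, since Cd300a (1.11) and Sirpa (1.12) then exceeded the FC threshold.

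**Figure D2:**
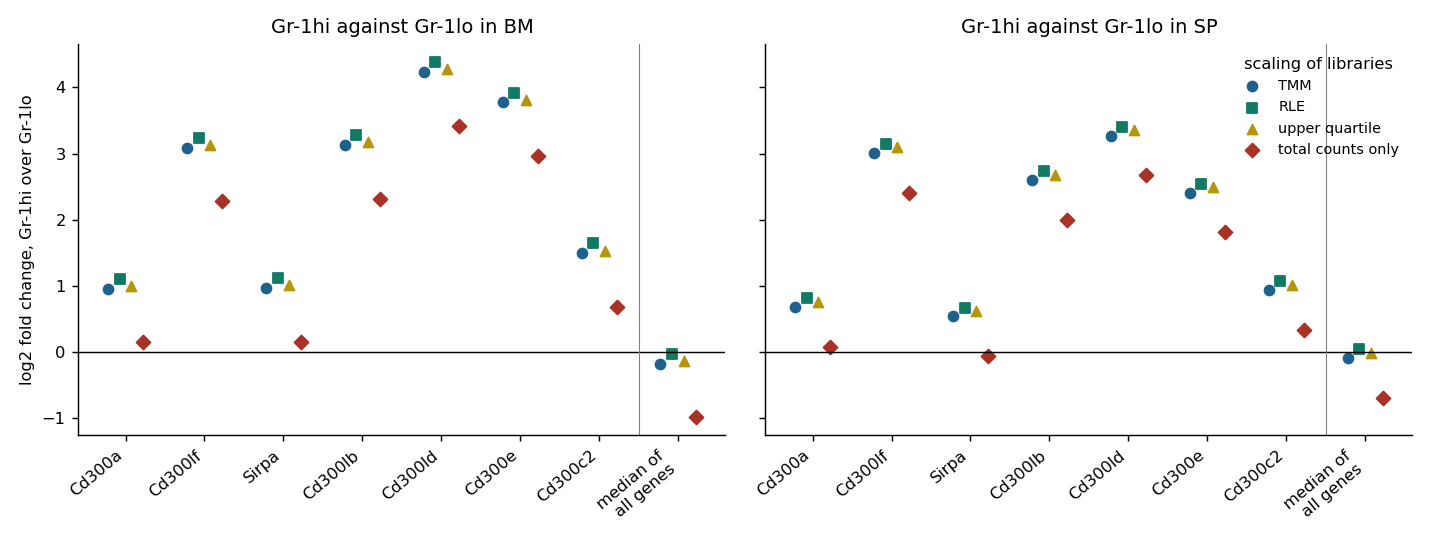
log2 FC of Gr-1hi over Gr-1lo cells in BM (left) and SP (right) for the 7 genes and, at the far right of each panel, the median of all tested genes, under TMM, RLE, upper-quartile and total-count scaling. Total-count scaling lowers every value together, the median of all genes to -0.99 in BM and -0.69 in SP, and puts Sirpa and Cd300a near 0, while Cd300lf, Cd300lb, Cd300ld and Cd300e stay at 1.81 or more.

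Ratios between genes within a library do not depend on this scaling. Levels per length (TPM) were compared for that purpose. A TPM level by itself is relative to the total of its library, so like total counts it is not free of the scaling. Sirpa was at 282 to 372 TPM in all 8 libraries and was the most abundant of the 7 genes in each of the 4 Gr-1lo libraries, whereas Cd300lf, at 452 to 783 TPM, was the most abundant in each of the 4 Gr-1hi libraries. The TPM of Cd300lf was accordingly 0.305 and 0.381 times that of Sirpa in BM Gr-1lo and 0.368 and 0.383 times in SP Gr-1lo libraries, but 1.44 and 1.53 times in BM Gr-1hi and 2.11 and 2.06 times in SP Gr-1hi libraries. Between the inhibitory genes Sirpa and Cd300a, the ratio of TPM followed the tissue and not the subset. It was 4.15 to 4.82 in the BM libraries and 2.66 to 3.25 in the SP libraries, with no overlap.

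The make-up of the CD300 transcripts was also compared, as the share of each gene in the summed TPM of the 6 CD300 genes of a library. Cd300a took 21.9% of it in both BM Gr-1lo libraries and 24.9% and 23.4% in SP Gr-1lo libraries, but only 5.72% to 7.96% in the Gr-1hi libraries. Cd300c2 likewise took 15.9% to 20.1% in Gr-1lo and 5.95% to 8.37% in Gr-1hi libraries. The share of Cd300ld was the reverse, with 5.91% to 11.9% in Gr-1lo and 19.7% to 22.7% in Gr-1hi libraries, and that of Cd300lf was 28.0% to 37.0% in Gr-1lo and 38.2% to 45.9% in Gr-1hi libraries. Cd300lb had a share of 26.2% and 26.1% in BM Gr-1hi libraries and of 17.0% and 18.4% in SP Gr-1hi libraries. In Gr-1lo libraries its share was 22.4% and 19.3% in BM and 15.1% and 14.7% in SP. Cd300e separated the tissues as well, at 0.0666% to 0.187% in BM and 0.671% to 0.851% in SP libraries. These shares are a description, and no test was made of them.

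**Figure D3:**
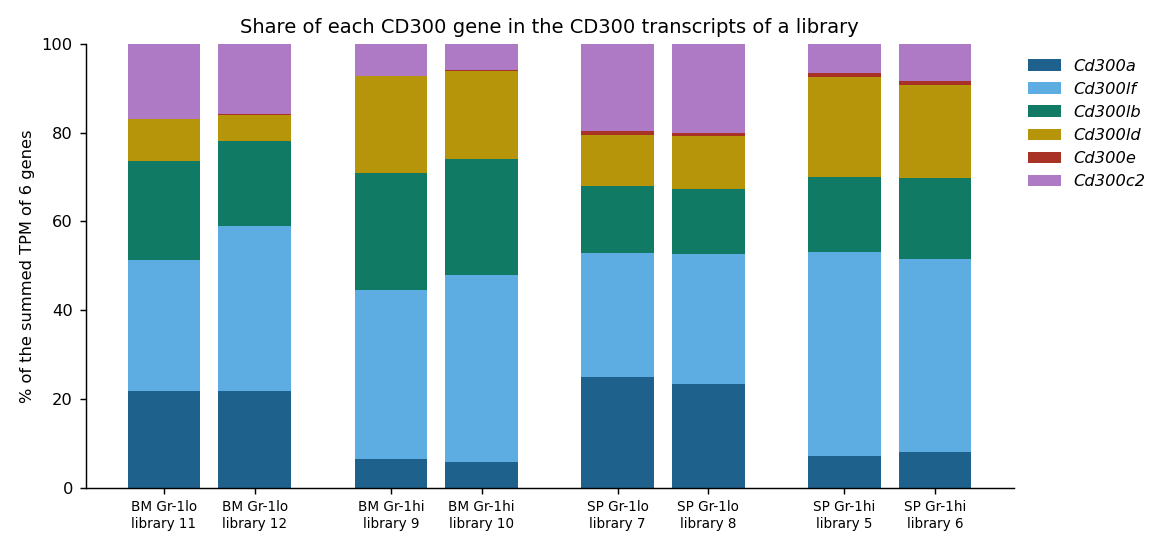
Share of each of the 6 CD300 genes in their summed TPM, as 1 stacked bar per library (0 to 100%). Cd300a and Cd300c2 fill more of the bar in the 4 Gr-1lo libraries (21.9% to 24.9% and 15.9% to 20.1%) and Cd300ld and Cd300lf more of it in the 4 Gr-1hi libraries, while Cd300e is under 0.9% everywhere.

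Next, SP was compared with BM within each subset. Of the 7 genes, Cd300e rose in SP cells of both subsets and Cd300ld rose in SP Gr-1lo cells, and none of the 7 was called lower, a call that 0.215% of all tested genes received in Gr-1lo and 1.48% in Gr-1hi cells. In Gr-1lo cells these were 2 of the 7 genes called higher in SP, where 3.84% of all tested genes were called higher and 4.06% in either direction. In Gr-1hi cells the only called gene was Cd300e, 1 of 7, beside 14.0% of all tested genes called higher and 15.5% in either direction. The median log2 FC of the 7 genes, SP over BM, was 0.74 in Gr-1lo and 0.31 in Gr-1hi cells, against -0.013 and 0.030 for all tested genes. The stricter rule left 1 gene in Gr-1lo cells (Cd300e; 1.26% of all tested genes) and 0 in Gr-1hi cells (3.54%).

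For Cd300e, the SP Gr-1lo libraries were at 2.57 and 2.17 CPM and the BM Gr-1lo libraries at 0.184 and 0.132 CPM, an FC of 14.7 (log2 FC 3.88 ± 0.29, adjusted p = 0.00040). The SP Gr-1hi libraries, at 12.5 and 12.7 CPM, were above the BM Gr-1hi libraries at 1.83 and 2.56 CPM, an FC of 5.74 (log2 FC 2.52 ± 0.22, adjusted p = 0.00023). The order of the groups was SP Gr-1hi, then SP Gr-1lo and BM Gr-1hi, which did not differ beyond their spread (log2 difference 0.11 ± 0.22, adjusted p = 0.67), and then BM Gr-1lo. Cd300e was the only one of the 7 genes for which SP Gr-1lo cells ranked above BM Gr-1hi cells. Both SP calls stood without any 1 library and without libraries 5 and 7 together (log2 FC 3.75 in Gr-1lo and 2.55 in Gr-1hi cells). The exact test that edgeR ran on quantile-normalized TPM did not call the gene in Gr-1lo cells (2.83, adjusted p = 0.76), where the Cd300e levels were 0.193 to 3.71 TPM before that normalization.

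Cd300ld was at 43.9 and 48.7 CPM in SP Gr-1lo and at 25.7 and 14.9 CPM in BM Gr-1lo libraries, an FC of 2.28 (log2 FC 1.19 ± 0.24, adjusted p = 0.029). This call was not stable. Without library 12, the lower of the BM Gr-1lo pair, the log2 FC was 0.85 (adjusted p = 0.065), and the call was also lost without library 5 (adjusted p = 0.075), 6 (0.075), 7 (0.085) or 8 (0.17), without 5 and 7 together (0.21) and in a fit of the 4 Gr-1lo libraries alone (0.082). In Gr-1hi cells the Cd300ld libraries of the tissues overlapped, with 490 and 401 CPM in SP and 422 and 342 CPM in BM (log2 FC 0.22 ± 0.23, adjusted p = 0.50).

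Cd300a and Cd300c2 were somewhat higher in SP Gr-1lo than in BM Gr-1lo cells, below the FC threshold. The log2 FC was 0.74 ± 0.11 (adjusted p = 0.0065) for Cd300a and 0.88 ± 0.15 (adjusted p = 0.010) for Cd300c2, and both SP libraries of either gene were above both BM libraries. In Gr-1hi cells the values were 0.46 ± 0.11 (adjusted p = 0.014) for Cd300a and 0.33 ± 0.15 (adjusted p = 0.11) for Cd300c2. Cd300lb was the only gene that passed the adjusted p with a lower level in SP, at -0.42 ± 0.12 (adjusted p = 0.026) in Gr-1hi cells, where its SP libraries were both under its BM libraries, and its Gr-1lo libraries overlapped (0.11 ± 0.12, adjusted p = 0.65). By adjusted p alone, at any FC, 4 genes were higher in SP Gr-1lo cells (5.58% of all tested genes passed in either direction), and 2 were higher and 1 lower in SP Gr-1hi cells (34.0%).

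For Cd300lf and Sirpa no difference between the tissues passed the adjusted p in the fit of all 8 libraries. The TMM-scaled SP and BM libraries of both genes did not overlap in either subset, those of SP being lower for Sirpa in Gr-1hi cells and higher in the other 3 cases. With 2 libraries per group such a separation says little by itself, and its share over all tested genes was not determined. The same holds for the separations of Cd300a, Cd300c2 and Cd300lb given just above. The log2 FC of Cd300lf was 0.39 ± 0.12 (adjusted p = 0.11) in Gr-1lo and 0.31 ± 0.12 (adjusted p = 0.073) in Gr-1hi cells. Some alternatives passed the adjusted p for Cd300lf, all under an FC of 2, with the lowest when lowly counted genes were kept (0.44 in Gr-1lo, adjusted p = 0.00093, and 0.33 in Gr-1hi cells, adjusted p = 0.010). That of Sirpa was 0.25 ± 0.10 (adjusted p = 0.22) in Gr-1lo and -0.18 ± 0.10 (adjusted p = 0.20) in Gr-1hi cells, and with total counts alone the latter was 0.030, while it was -0.37 (adjusted p = 0.039) without library 5. A difference of the size of these SEs could not be resolved with 2 libraries per group.

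Transcripts of other cell types moved with the tissue and with the subset. In SP Gr-1lo cells, 17 of 20 B cell, 7 of 9 plasma cell, 12 of 12 T cell, 3 of 6 NK cell, 5 of 10 dendritic cell, 7 of 14 splenic macrophage and 6 of 6 erythroid markers tested were called higher than in BM, and in SP Gr-1hi cells these were 20, 9, 11, 5, 6, 7 and 5. In SP Gr-1hi cells 1 dendritic cell marker was called lower than in BM. Of all tested genes, 3.84% were called higher in SP Gr-1lo and 14.0% in SP Gr-1hi cells. The summed levels remained unequal in size. B cell markers came to 228 to 285 CPM in BM Gr-1lo, 413 to 657 CPM in SP Gr-1lo, 186 to 210 CPM in BM Gr-1hi and 1178 to 1898 CPM in SP Gr-1hi libraries, and dendritic cell markers to 6.99 to 10.2, 30.9 to 47.3, 27.7 to 41.0 and 115 to 120 CPM in the same order. T cell markers were at 3.05 to 3.12, 34.4 to 51.1, 8.05 to 11.5 and 106 to 170 CPM, and NK cell markers at 0.410 to 0.642, 4.26 to 5.08, 1.53 to 1.98 and 9.12 to 12.7 CPM. In BM and SP libraries, plasma cell markers were at 157 to 423 and 1276 to 1805 CPM and erythroid markers at 7.76 to 43.8 and 166 to 731 CPM. Between the subsets, 20 of 20 B cell, 11 of 12 T cell, 4 of 6 NK cell, 4 of 10 dendritic cell and 7 of 14 splenic macrophage markers were called higher in SP Gr-1hi than in SP Gr-1lo cells, and 13, 6, 3, 4 and 7 of them in BM, while of 9 plasma cell markers 2 were called higher in SP and 5 lower in BM. Called lower in Gr-1hi cells were 1 dendritic cell and 2 splenic macrophage markers in SP. In BM these were 1 B cell, 2 dendritic cell and 3 splenic macrophage markers. Of all tested genes, 22.3% were called higher in SP Gr-1hi and 24.2% in BM Gr-1hi cells.

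Of the markers closest to cells in which Cd300e is known, the 7 for non-classical monocytes summed to 406 to 430 CPM in BM Gr-1lo, 632 to 655 CPM in SP Gr-1lo, 305 to 321 CPM in BM Gr-1hi and 441 to 659 CPM in SP Gr-1hi libraries, none of them at 0 in both libraries of a group. Of these 7, Treml4 and Ace were called higher in SP Gr-1lo cells (FC 8.02 and 23.0), and Ace and Pou2f2 in SP Gr-1hi cells (log2 FC 2.53 and 2.06). In each subset the other 5 were not called, and 0 were called lower. Treml4 was not confined to Gr-1lo cells, with means of 52.8 CPM in BM Gr-1hi and 3.6 CPM in BM Gr-1lo cells. The 14 splenic macrophage markers summed to 247 to 295, 355 to 396, 627 to 700 and 993 to 1176 CPM in the order of BM Gr-1lo, SP Gr-1lo, BM Gr-1hi and SP Gr-1hi libraries. The 10 classical monocyte markers were at 7251 to 10622 CPM in Gr-1lo and 1185 to 1859 CPM in Gr-1hi libraries, with 0 of 10 called higher in SP Gr-1lo and 4 of 10 in SP Gr-1hi cells. The 12 neutrophil markers were at 5209 to 5257 CPM in BM Gr-1lo, 11043 to 12327 CPM in SP Gr-1lo, 158891 to 172489 CPM in BM Gr-1hi and 88134 to 119303 CPM in SP Gr-1hi libraries, and all 12 were called higher in Gr-1hi cells of either tissue. Eosinophil, basophil and mast cell markers (7.82 to 62.3 CPM) and platelet markers (0.812 to 7.14 CPM) were low throughout, and of the former 1 of 8 was called higher and 3 lower in SP than in BM Gr-1hi cells (median log2 FC -1.30), while 7 of 8 in BM and 6 of 8 in SP were called higher in Gr-1hi than in Gr-1lo cells. Of 2 platelet markers tested, 0 were called between the tissues. The part of these cells in the levels of Cd300e, Cd300ld and the other genes was not tested.

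Whether the subsets differed to the same extent in both tissues was examined with the interaction of tissue and subset, that is the log2 FC of Gr-1hi over Gr-1lo cells in SP minus that in BM. It was negative for all 7 genes, with a median of -0.53 against 0.026 for all tested genes, and it was called for Cd300e (-1.36 ± 0.38, adjusted p = 0.045), 1 gene of 7, where 2.0% of all tested genes were called in that direction and 9.74% in either, and 0 of 7 were called by the stricter rule (0.584% of all tested genes). The Cd300e call was close to the threshold. It was lost under upper-quartile scaling (adjusted p = 0.051) and total counts (0.079), without libraries 5 and 7 together (0.20), and without library 5 (0.065), 7 (0.12), 8 (0.081), 10 (0.071), 11 (0.093) or 12 (0.19). For Cd300ld the interaction was -0.97 ± 0.33 (adjusted p = 0.088), which passed the threshold without library 11 (-1.42, adjusted p = 0.016) and when lowly counted genes were kept (adjusted p = 0.0093). Cd300lf had the value nearest 0, at -0.079 ± 0.17 (adjusted p = 0.79), and it was 0.14 with total counts and 0.027 without library 11. The remaining 4 genes lay between -0.55 ± 0.21 for Cd300c2 and -0.28 ± 0.16 for Cd300a, with adjusted p of 0.064 to 0.26. All 5 comparisons draw on the same 8 libraries and so are not independent of each other.

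**Figure D4:**
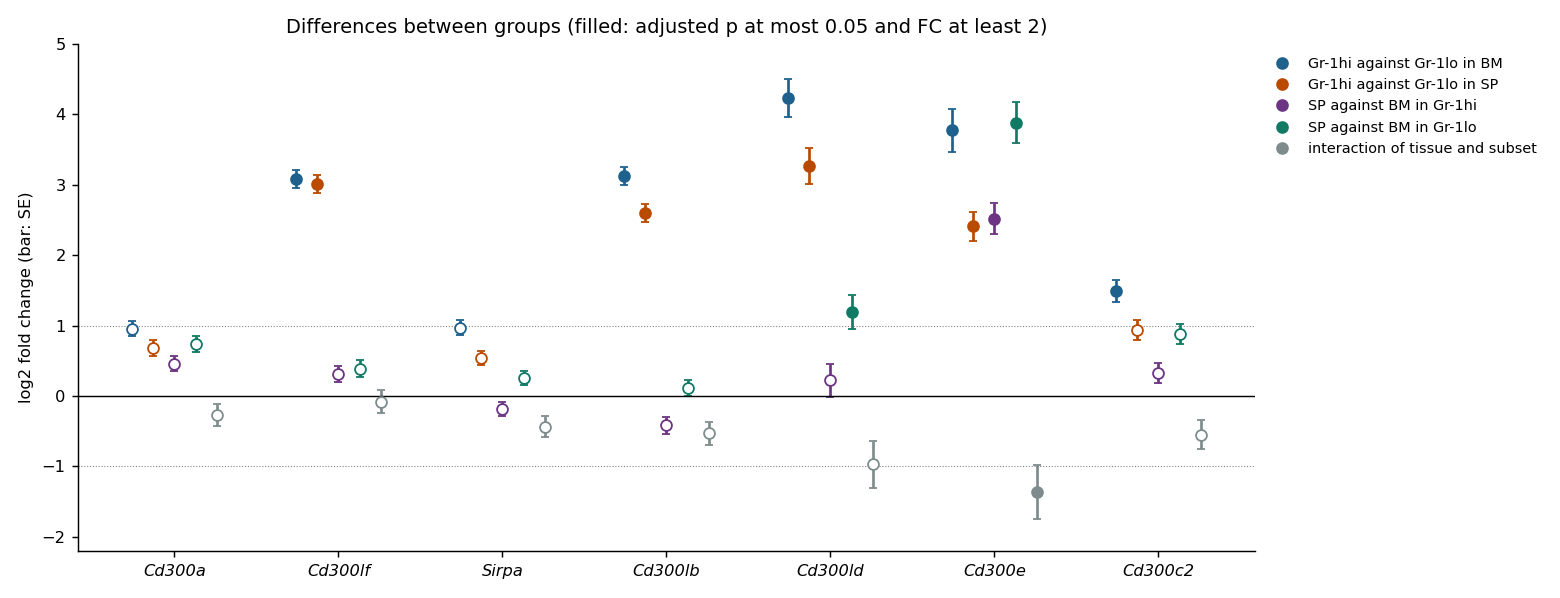
log2 FC with SE for each of the 7 genes in the 4 comparisons of groups and in the interaction. Filled points were called, and dotted lines mark an FC of 2. Cd300e is filled in all 5, while Cd300a and Sirpa are filled in none.

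The genes most like each of the 7 over the 8 libraries were sought among 8591 others with a mean of at least 10 CPM, by Pearson's r of log2(CPM + 1), as a description in which all points share 4 groups of 2 libraries. For Cd300lb, Tyrobp, the gene of its own adaptor, was among the 3 nearest (r = 0.999), after Rnf13 and Btbd7 (both 0.999), with means of 449 CPM in BM Gr-1lo, 1380 CPM in BM Gr-1hi, 467 CPM in SP Gr-1lo and 1215 CPM in SP Gr-1hi cells. For Cd300a, which was higher in SP than in BM in both subsets, Itgax (CD11c) came first (0.994), with Grcc10 (0.978) and Pla2g7 (0.977), and Itgax was also among the 3 for Cd300c2 (0.985), after Lst1 (0.990) and Marcksl1 (0.989). The mean level of Itgax was 0.866 CPM in BM Gr-1lo, 13.8 CPM in SP Gr-1lo, 27.5 CPM in BM Gr-1hi and 82.9 CPM in SP Gr-1hi cells. Cd300e was nearest to Adgre5 (CD97; 0.991), Dusp16 (0.990) and Mpp1 (0.982). Cd300lf was nearest to Crebrf, Zc3hav1 and Irak2 (each 0.999), Cd300ld to Pik3r5 (0.998), Plek (0.998) and Kdm6b (0.997), and Sirpa to Esrra (0.991), Bmt2 (0.990) and Synj1 (0.989). Among the 7 genes themselves, r ranged from 0.630 for Cd300lb with Cd300e to 0.981 for Cd300a with Cd300c2.

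The wider CD300 and SIRP families were looked at for comparison. Of 6 other CD300 genes tested, 5 were called higher and 1 lower in Gr-1hi than in Gr-1lo cells, in BM as in SP, and 4 were called higher in SP Gr-1lo than in BM Gr-1lo cells, with medians of 3.20, 2.41 and 1.69 on the log2 scale. These 4 were Cd300ld2, Cd300ld3, Cd300ld4 and Cd300ld5, which neighbour Cd300ld and share 16.0%, 80.9%, 86.6% and 100% of their exon stretches with each other, so that counts of each are uncertain. Together they amounted to 8.77 and 5.69 CPM in BM Gr-1lo, 20.6 and 27.6 CPM in SP Gr-1lo, 94.3 and 72.1 CPM in BM Gr-1hi and 182 and 125 CPM in SP Gr-1hi libraries. In SP over BM Gr-1lo cells their log2 FC was 1.71, 1.67, 1.85 and 1.76, and these calls were lost without library 12 (adjusted p = 0.057 to 0.22) and, but for Cd300ld4, without library 8. Cd300c, with 4 to 27 reads per library, rose in Gr-1hi cells (log2 FC 2.42 in BM and 2.19 in SP).

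The exception was Cd300lg, whose protein (nepmucin) is known from endothelium and lies outside the cluster (chr11:102041509-102055620, plus strand). It was at 41.9 and 38.8 CPM in BM Gr-1lo and 24.0 and 24.5 CPM in SP Gr-1lo libraries, against 0.150 and 0.826 CPM (4 and 20 reads) in BM Gr-1hi and 0.0301 and 0.128 CPM (1 and 4 reads) in SP Gr-1hi libraries. Its fitted log2 FC of Gr-1hi over Gr-1lo was -6.40 in BM (adjusted p = 1.5e-06) and -8.24 in SP (adjusted p = 2.6e-06), the latter on 5 reads in the lower group.

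Among the SIRP genes, the activating Sirpb1a, Sirpb1b and Sirpb1c were called higher in SP than in BM Gr-1hi cells, with log2 FC of 1.14, 1.01 and 1.17, where Sirpa was not. They share 22.7% to 39.0% of their exon stretches, and the calls were lost without library 5 (0.76, 0.64 and 0.74) without library 10 (0.92, 0.79 and 0.94) and without libraries 5 and 7 together (0.85, 0.74 and 0.84), and that of Sirpb1b also under RLE scaling and DESeq2 (both 0.94). In SP, Sirpb1b was also higher in Gr-1hi than in Gr-1lo cells (1.33, adjusted p = 0.00019), a difference of 0.73 with total counts, 0.92 in the exact test on quantile-normalized TPM and 0.96 without libraries 5 and 7. Cd47, the ligand of SIRPα, was not called in any comparison, with a log2 FC of Gr-1hi over Gr-1lo of 0.64 in BM and 0.54 in SP that turned to -0.17 and -0.060 with total counts.

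Genes that relay the signals of these receptors were also listed. Of 13 adaptors and tyrosine kinases of activating receptors, 8 were called higher and 1 lower in BM Gr-1hi than in BM Gr-1lo cells (median 1.14), and 6 higher and 1 lower in SP (median 0.93), beside 24.2% of all tested genes called higher in BM and 22.3% in SP. Tyrobp, shared by Cd300lb and Cd300e, rose by 1.62 in BM (adjusted p = 5.8e-07) and 1.38 in SP (adjusted p = 2.5e-06) on the log2 scale. These values were 0.81 and 0.78 with total counts, and 0.88 and 0.79 in the exact test on quantile-normalized TPM. Hcst, the adaptor DAP10, rose by 3.01 in BM and 2.23 in SP. Lat2, a scaffold below ITAM receptors, fell in both tissues (log2 FC -2.51 in BM, -1.60 in SP). Between SP and BM, none of the 13 was called in Gr-1lo cells and only Src in Gr-1hi cells (1.71, adjusted p = 0.038), at 1.36 CPM or less in every library and not without library 5, 6, 9, 10, 11 or 12 or without 5 and 7 together.

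Of 10 phosphatases and scaffolds that act with ITIM receptors, 5 were called higher and 1 lower in BM Gr-1hi cells (median 0.94), beside 24.2% of all tested genes called higher. In SP Gr-1hi cells 3 were called higher (median 0.66), which is close to the 22.3% of all tested genes, and none was called between SP and BM. The docking protein Dok3 rose by 1.77 in BM and 1.34 in SP, the adaptor Fyb by 1.54 and 1.09, and Skap2, its partner, by 1.30 and 1.17. All 3 were under an FC of 2 with total counts. Fyb in SP was also under it without libraries 5 and 7 (0.96), without library 7 (0.98) and without the filter (0.96). In the exact test on quantile-normalized TPM, Skap2 (0.96 in BM and 0.92 in SP) and, in SP, Dok3 (0.93) and Fyb (0.74) were under it as well. Ptpn6, which encodes SHP-1 and was picked out after its values had been seen, was not called, at 0.73 in BM and 0.74 in SP, and at -0.086 in BM with total counts.

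Of 23 other paired receptors of myeloid cells tested, 17 were called higher and 3 lower in BM Gr-1hi cells (median 2.07), and 16 higher and 2 lower in SP Gr-1hi cells (median 1.37). Cd33, a lectin of the Siglec family, rose by 5.34 in BM and 4.76 in SP, and the activating Trem1 by 5.18 and 3.94 and Pilrb2 by 3.97 and 2.78. Trem2, known from macrophages, fell in both tissues (log2 FC -4.72 in BM, -5.90 in SP). Between SP and BM, 1 of the 23 was called in Gr-1lo cells (Treml4), against 2 of the 7, and in Gr-1hi cells 2 were called higher (Lair1 and Siglecf) and 2 lower (Trem2 and Siglech), of which Siglecf (0.94) and Siglech (adjusted p = 0.075) lost their calls without libraries 5 and 7 together. For these 23 and the 6 other CD300 genes the shares of all tested genes are those given above. As counts of calls these describe the lists only, and no test compared the 7 genes with them.

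**Figure D5:**
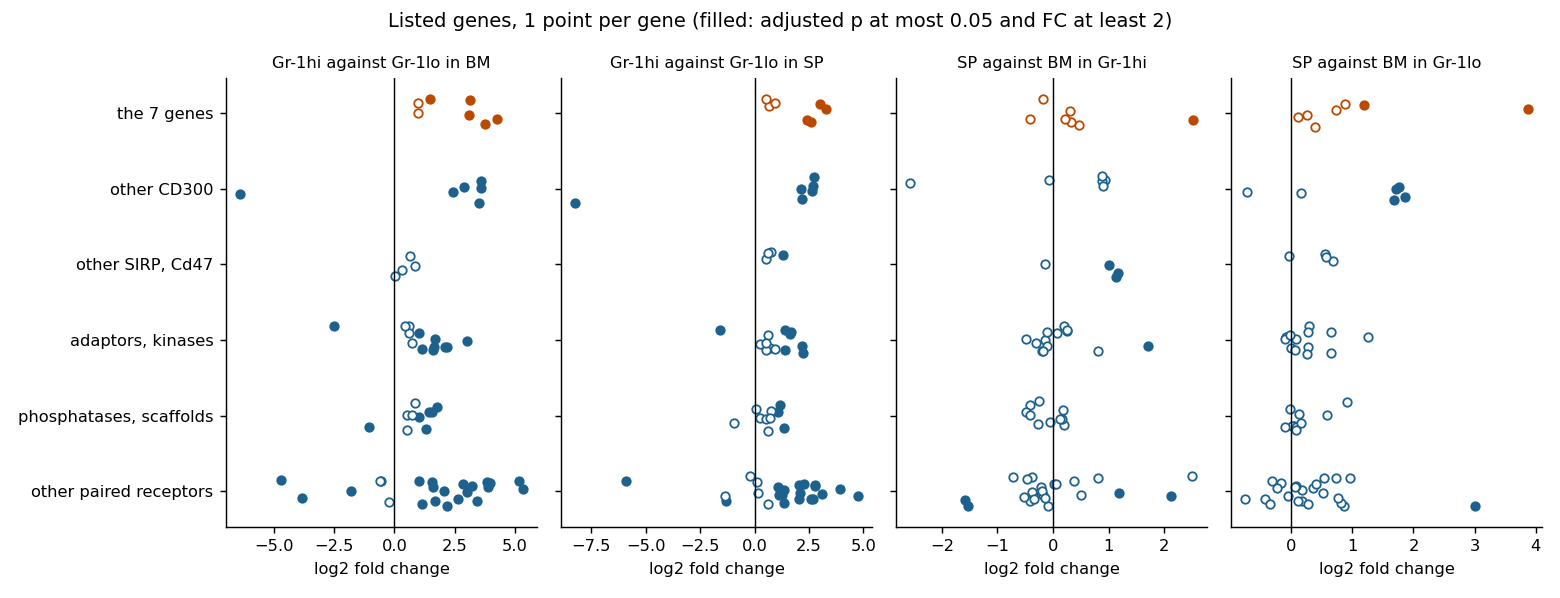
log2 FC of each listed gene (1 point per gene, filled where called, spread vertically for legibility) in the 4 comparisons of groups, for the 7 genes, the other CD300 genes, the other SIRP genes with Cd47, the adaptors and kinases, the phosphatases and scaffolds, and other paired receptors. The first 2 panels lie mostly to the right of 0 and the last 2 mostly around 0, with Cd300e as the point furthest to the right among the 7 genes in the comparisons of SP with BM. There the medians of the other CD300 genes (1.69 in Gr-1lo and 0.88 in Gr-1hi cells) lie to the right of those of the 7 genes (0.74 and 0.31). The median of the other SIRP genes with Cd47 lies to the left of that of the 7 genes in Gr-1lo (0.55) and to the right in Gr-1hi cells (1.07).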

How the data were processed

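Counts per gene were deposited by the authors as whole numbers without normalization, after a quality check with FastQC, filtering with Sickle, alignment to GRCm38 with STAR and counting with featureCounts. The strand and multi-mapping settings of the counting are not given in the sources used here. Libraries were prepared from polyadenylated RNA with a stranded kit and sequenced as paired reads.

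Counts of 54188 genes in 8 libraries (4 groups of 2, as labelled) were tested with the package edgeR (version 4.0.16; R version 4.3.3). The function filterByExpr left 17650 genes, libraries were scaled by TMM, and 1 quasi-likelihood model (glmQLFit, robust) with a term per group left 4 residual degrees of freedom. Contrasts were tested by the quasi-likelihood F test, with Benjamini-Hochberg adjustment over all tested genes, and a gene was called where the adjusted p was 0.05 or less and the FC 2 or more. The SE is the absolute log2 FC divided by the square root of F. P values measure the spread between these libraries only. TPM used exon lengths of GENCODE M21, which holds 53947 of the 54188 genes, on the same build. Depth was 33453580 to 68316154 counts per library. The procedure was tested on simulated data.

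The members and gene lists were chosen with earlier results of these data known. Named were the 7 genes, up to 4 genes per pathway list with the largest log2 FC among those called between groups, every other CD300 and SIRP gene with Cd47, the 3 genes most like each of the 7, and Ly6g, Itgam, Csf1r, Xist and Ddx3y as checks. A gene that the rule named is not reported here. Other names were chosen after their values were seen. Marker lists covered B, plasma, T, NK and dendritic cells, splenic macrophages, classical and non-classical monocytes, neutrophils, eosinophils with basophils and mast cells, erythroid cells and platelets. Motifs were searched in RefSeq promoters (GRCm38.p6).

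Alternatives were RLE and upper-quartile scaling, DESeq2 1.42.0, no filter on low counts, each library left out in turn, libraries 5 and 7 left out together, a fit of the 4 libraries compared, edgeR's exact test on quantile-normalized TPM, and the call rule that the study used between subsets (adjusted p below 0.01 and FC above 8). Scaling by total counts alone was added after the data had been seen.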

Additional observations from a re-analysis of the deposited data

Results flagged for a closer look

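The difference between Gr-1hi and Gr-1lo cells was not the same in SP and BM for 9 of the listed genes, by edgeR's quasi-likelihood test of the interaction (adjusted p at most 0.05 over all tested genes and a log2 value of at least 1 in size), by which 9.74% of all tested genes were called. The listed genes tested were the 7 genes, 6 other CD300 genes, 4 SIRP genes with Cd47, 13 adaptors and kinases, 10 phosphatases and scaffolds and 23 other paired receptors. No test compared the count of 9 with the share of all tested genes. Cd300e was the single member of the CD300 group among the 9, at -1.36 (adjusted p = 0.045), with the Gr-1hi excess smaller in SP. In the same direction were Treml4 (-2.64, adjusted p = 0.0016), Ceacam1 (-1.25, adjusted p = 0.015), Pilrb2 (-1.19, adjusted p = 0.0066), Dok2 (-1.18, adjusted p = 0.018), Trem2 (-1.18, adjusted p = 0.029) and Pilra (-1.16, adjusted p = 0.0055). For Trem2, which was lower in Gr-1hi cells of both tissues, the negative value means a larger deficit in SP. Lair1 (1.59, adjusted p = 0.0094) and Siglecf (1.62, adjusted p = 0.0085) went the other way. Of these, 4 beside Cd300e lost their call without libraries 5 and 7 together, namely Trem2 (adjusted p = 0.14), Dok2 (0.095), Lair1 (0.10) and Ceacam1 (log2 value -0.91). Without library 12 the calls of Trem2 (adjusted p = 0.089), Dok2 (0.069), Ceacam1 (0.061) and Pilra (log2 value -0.97) were lost, and without library 7 those of Trem2 (0.079), Dok2 (0.059) and Ceacam1 (0.053). Trem2 was also lost without library 8 (0.076), 10 (0.075) or 11 (0.066) and Dok2 without library 8 (0.059), and with total counts Trem2 (0.053), Dok2 (-0.98), Pilrb2 (-0.98) and Pilra (-0.94) were not called.

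For Treml4, a marker of non-classical monocytes, the levels were 4.24 and 2.91 CPM in BM Gr-1lo, 27.7 and 29.6 CPM in SP Gr-1lo, 58.8 and 46.8 CPM in BM Gr-1hi and 70.5 and 65.8 CPM in SP Gr-1hi libraries. For Lair1, an inhibitory collagen receptor, they were 56.6 and 68.3 CPM, 87.7 and 93.6 CPM, 13.8 and 21.9 CPM, and 82.5 and 73.2 CPM in the same order.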

How the results depend on the processing

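No paired analysis was possible because the groups share no replicate numbers and no label says which libraries share a mouse. Of 546 values of the 7 genes under the alternatives, covering 35 results, 503 kept their direction and their side of the threshold, 18 lost and 18 gained a call, and 7 changed sign. The sign changed for Cd300lb in SP over BM Gr-1lo cells without library 12 (-0.044, range without a library -0.044 to 0.29), Cd300ld in SP over BM Gr-1hi cells without library 5 (-0.012) or 10 (-0.023; range -0.023 to 0.31), Sirpa with total counts in SP over BM Gr-1hi cells (0.030) and in Gr-1hi over Gr-1lo cells of SP (-0.060), and the interaction of Cd300lf with total counts (0.14) or without library 11 (0.027; range -0.31 to 0.027), none of them called. Outside the 7 genes it changed with total counts for Cd47 (-0.17 in BM and -0.060 in SP) and Ptpn6 (-0.086 in BM). In SP over BM Gr-1lo cells the number of the 7 genes called was 1 to 2 with a library left out, and 1 without libraries 5 and 7 together, in the fit of the 4 libraries compared, in the exact test and under the stricter rule. Without a library it stayed 1 in SP over BM Gr-1hi cells (1 to 1), 4 in Gr-1hi over Gr-1lo cells of SP (4 to 4) and 5 to 7 in BM, and the stricter rule left 0, 2 and 4. The interaction was called for 0 of the 7 genes under upper-quartile scaling, total counts, the stricter rule and without libraries 5 and 7, for 2 without the filter, and for 0 to 1 with a library left out. The cause of these changes was not tested. With 2 libraries per group and 9 and 7 reads of Cd300e in BM Gr-1lo cells, its FC there is the least precise of those called.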
